A study of Mus musculus with 81 samples.

Results

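Of 81 pancreas cells sequenced one cell per library, 62 were stromal, and these split into 44 with clear transcripts of Wt1 and 18 with none or a trace. A cell was counted as stromal when Col3a1, which encodes a fibrillar collagen of connective tissue, reached 10 RPKM (a read count divided by transcript length and library depth) and Epcam, Chga, Tyrobp and Emcn, which mark epithelial, endocrine, myeloid and endothelial cells, each stayed below 10 RPKM. The 4 shallowest libraries (C3, C43, C61 and C94) were left out. The 44 Wt1-positive cells had Wt1 at or above 1 RPKM and made up 70.97% of the stromal cells (exact Clopper-Pearson 95% interval 58.1% to 81.8%), and the 18 Wt1-negative cells had Wt1 below 1 RPKM. The embryos were wild-type, of the CD1 strain and at embryonic day 13.5, and trypsin was used to dissociate their pancreata. Cells were loaded on a microfluidic device, cDNA was made with SMARTer chemistry and libraries with Nextera XT. The labels name no sort, and both groups are defined by the Wt1 transcript alone. The labels name no animals or pools, so all cells were treated as 1 sample: no p-value is given, SDs are spreads over cells, and intervals of shares cover counting error only.

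Wt1 encodes a zinc finger transcription factor that is needed for the formation of the kidney, gonad and spleen. In the embryo it is made in the mesothelium, the epithelial sheet that covers visceral organs, and in mesenchyme that descends from it. Cells that leave the mesothelium enter the stroma of several organs, where they can become fibroblasts, pericytes or smooth muscle, and in the pancreas the surrounding mesenchyme supplies growth signals to the epithelial buds.

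Wt1 has 1 transcript row in the table, at chr2:104966686-105013771 on the plus strand of mm9, with an annotated length of 3090 bases. In Wt1-positive cells its lowest, median and highest values were 3.57, 40.2 and 166.4 RPKM, against 0, 0 and 0.315 RPKM in Wt1-negative cells. In estimated reads these are 39, 478 and 1342 reads in Wt1-positive cells and 0, 0 and 3 reads in Wt1-negative cells. No stromal cell lay between 0.315 and 3.57 RPKM, so the threshold of 1 RPKM fell in a gap. Of the Wt1-negative cells, 10 were listed at 0 and 8 had a value above 0. These values chose the groups and are given as a description. The head-to-head neighbour AI314831, a non-coding RNA on the opposite strand whose start lies beside that of Wt1 (chr2:104916695-104966667, mm9), reached 1 RPKM in 10 of 44 Wt1-positive cells and 3 of 18 Wt1-negative cells, with a difference of mean log2(RPKM + 1) of -0.00.

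Read depth was set beside the groups first. Wt1-positive cells had an estimated 2.35M, 3.72M and 4.95M reads (lowest, median, highest), against 1.66M, 3.39M and 4.90M reads in Wt1-negative cells. The mean difference on the log2 scale was 0.09, against an SD of 0.34 over the stromal cells, and the ranges overlapped. At the depth of a Wt1-negative cell, 1 Wt1 read was worth between 0.0660 and 0.195 RPKM, below the threshold in each of these 18 cells. Wt1-positive cells were 24 of 31 stromal cells with reads above the median and 20 of 31 at or below it. Across the 62 stromal cells the Spearman correlation of Wt1 with reads was -0.07, a description over cells that share 1 preparation.

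**Figure D1:**
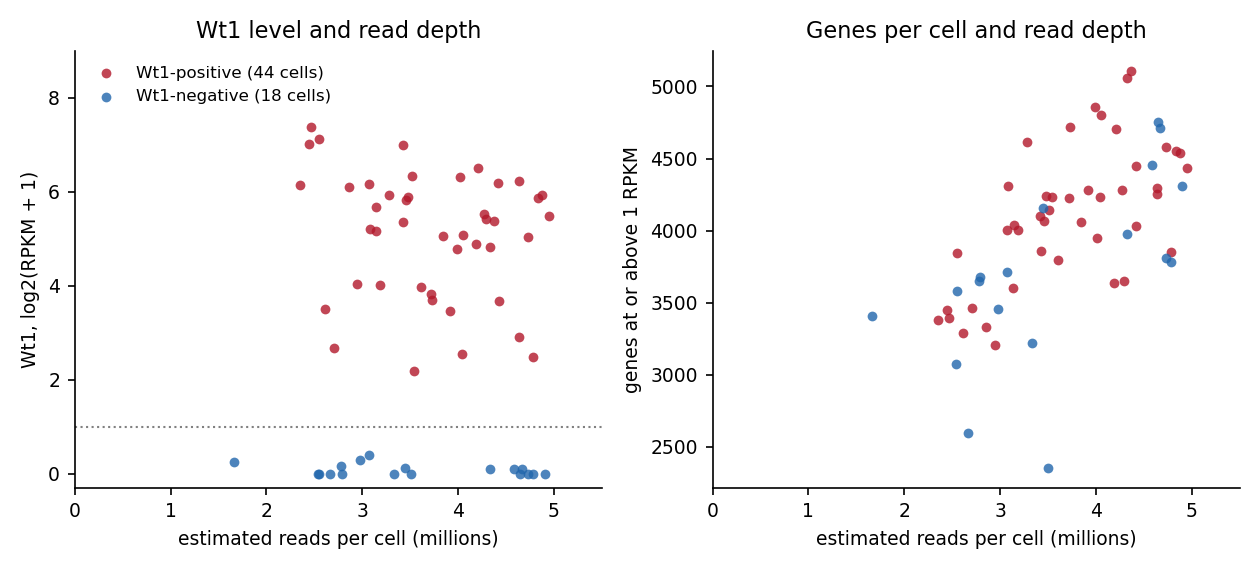
Left, Wt1 on the log2(RPKM + 1) scale against estimated reads, 1 point per stromal cell (44 Wt1-positive in red, 18 Wt1-negative in blue), with a dotted line at the threshold of 1 RPKM. Right, the number of genes at or above 1 RPKM against reads; the depths of the groups overlap, with the shallowest cell (C96, 1.66M reads) Wt1-negative, and Wt1-positive cells had a median of 4124.5 genes against 3693.5 in Wt1-negative cells.

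The number of genes detected differed more than depth did. Wt1-positive cells had 3203, 4124.5 and 5110 genes at 1 RPKM (lowest, median, highest; mean 4112 ± 483, SD), against 2353, 3693.5 and 4756 genes in Wt1-negative cells (mean 3705 ± 651, SD). When each cell was thinned to the 1.66M reads of the shallowest stromal cell, the expected number of genes with at least 1 read had a median of 5191 in Wt1-positive cells and 4738 in Wt1-negative cells. The 100 highest genes took a median of 25.1% of a cell's RPKM in Wt1-positive cells and 27.2% in Wt1-negative cells. Of the 31 cells with more genes than the median, 26 were Wt1-positive, against 18 of the other 31. What belongs to Wt1 and what belongs to genes per cell cannot be told apart here, so the main results are also given after adjustment for genes per cell. The wells named in the column headers gave another uneven split: Wt1-positive cells were 10 of 11 stromal cells in plate row G and 1 of 4 in row H. They were 20 of 29 in cells numbered 1 to 48 and 24 of 33 in cells numbered 49 to 96. No 2 of the 81 libraries share an index pair.

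The stromal label was checked against markers of other cell types. Col3a1 had a median of 122.5 RPKM in Wt1-positive cells and 122.2 RPKM in Wt1-negative cells. Since Col3a1 chose these cells, its values are a description and no check. Among the other lists of markers, none of the 9 epithelial and 5 endothelial genes outside the gate, nor of the 6 glial and 9 erythroid genes, reached 1 RPKM in 10% of the stromal cells. The summed level of these epithelial markers ran from 0 to 346.5 RPKM in Wt1-positive cells and from 0 to 0.311 RPKM in Wt1-negative cells, with a median of 0 in both. The high end came from a few Wt1-positive cells with Krt19 (2 cells at 1 RPKM) and Krt18 (3 cells), while Cdh1 reached 1 RPKM in no stromal cell. Endothelial markers summed to at most 20.1 RPKM in Wt1-positive cells and 2.78 RPKM in Wt1-negative cells, glial markers to 14.5 and 1.67 RPKM, and erythroid markers to 12.1 and 11.6 RPKM. Leukocyte markers summed to at most 6.92 RPKM in Wt1-positive cells and 29.8 RPKM in Wt1-negative cells. Of the endocrine markers, the hormone genes Gcg and Pyy were seen at low levels in both groups, Gcg at 1 RPKM in 13 of 44 and 7 of 18 cells. Their part in the differences below was not tested.

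Wt1 transcripts were also found outside the stromal gate, where 7 of 15 cells of full depth had Wt1 at 1 RPKM (46.7%, interval 21.3% to 73.4%). They included 4 of 8 cells with Epcam at 10 RPKM and 2 of 4 cells with Tyrobp, a myeloid adaptor gene. In those 2 Tyrobp cells Wt1 stood at 14.7 RPKM (C31, an estimated 90 reads) and 61.3 RPKM (C36, 901 reads). Col3a1 stood at 2.902 RPKM in C31 and 141.8 RPKM in C36. Of the 7 cells, C22, C29, C36, C47 and C91 also had Col3a1 at or above 10 RPKM, and C13 and C31 did not. Among the cells of full depth outside the gate with Wt1 below 1 RPKM, only C45 had Col3a1 below 10 RPKM. The 2 cells with Chga at 10 RPKM had 0 and 0.0776 RPKM of Wt1. Whether the Wt1 reads of a library all come from the captured cell was not tested, inside the gate or outside it.

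Genes of the mesothelium were rare in both groups. Msln, which encodes the mesothelial surface protein mesothelin, and Dmkn were listed at 0 in every stromal cell. Upk3b, another mesothelial gene, reached 1 RPKM in 1 of 44 Wt1-positive cells and 0 of 18 Wt1-negative cells (0 of 18 allows a share of up to 16.7%), and Lrrn4 likewise in 1 and 0 cells. Bnc1 did so in 3 of 44 and 2 of 18 cells. Krt18 did so in 3 and 0 cells, Krt19 and Gpm6a each in 2 and 0, and Pdpn in 4 and 1. Podxl, by contrast, did so in 2 and 2 cells and Cldn15 in 0 and 1. Aldh1a2, the retinoic acid synthesis enzyme of mesothelium and its descendants, reached 1 RPKM in 5 of 44 Wt1-positive cells and 3 of 18 Wt1-negative cells, with highest values of 106.0 and 135.7 RPKM. Only 3 of the 23 mesothelial genes in the table were common enough to be compared (Bnc2, Ezr and Aldh1a2), with differences of -0.31, -0.44 and -0.38. The 23 genes summed to a median of 1.51 RPKM in Wt1-positive cells and 5.68 RPKM in Wt1-negative cells. Their highest sums were 1093 RPKM in Wt1-positive cells and 681.9 RPKM in Wt1-negative cells.

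Across all genes, most differences were small beside the spread over cells. The comparison covered 9023 genes at 1 RPKM in at least 10% of the stromal cells. In Wt1-positive cells, 568 of them (6.3%) had a mean log2(RPKM + 1) higher by at least 1 unit and 165 (1.83%) had one lower by as much. The median gene was 0.14 higher, 95% of the genes lay between -0.91 and 1.32, and 61.9% of the differences were above 0. After adjustment for genes per cell, the median was 0.02, 51.3% of the differences were above 0, with 388 genes (4.3%) past 1 unit on the higher side and 389 (4.31%) on the lower. With estimated reads in the fit instead, the median was 0.12, with 510 genes (5.65%) higher and 188 (2.08%) lower. The gene differences below stand beside this median of 0.14, and unadjusted list counts beside the shares of 6.3% and 1.83%. Only 6 genes were higher and 2 lower by more than 1 SD pooled over cells: Ndufa12, Tjp1, Id3, Arhgef2, Mat2a and Golga7, and Polg and Wdr7. Ndufa12, Tjp1, Mat2a, Polg and Wdr7 were named after their values were seen.

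**Figure D2:**
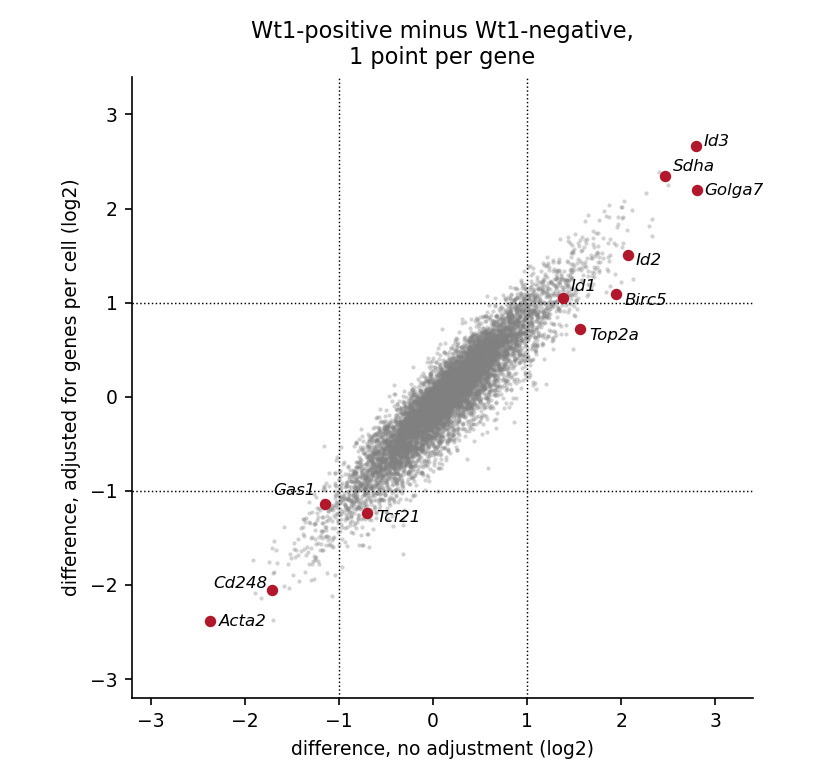
Each grey point is 1 of 9023 genes, with its Wt1-positive minus Wt1-negative difference of mean log2(RPKM + 1) on the x axis and the same difference adjusted for genes per cell on the y axis; dotted lines mark 1 unit. Id3 (2.79 and 2.66) and Acta2 (-2.37 and -2.39) kept their place, while the mitotic gene Top2a went to 0.72 after adjustment, against 1.56 before it.

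Id3 and Id2 were among the 15 genes of largest difference on the higher side. Id proteins bind basic helix-loop-helix transcription factors and keep them off DNA, and the Id genes are classic direct targets of BMP signalling through SMAD proteins. Id3 (chr4:135699737-135701307, mm9) had 0, 62.8 and 461.5 RPKM in Wt1-positive cells (lowest, median, highest), against 0, 3.68 and 376.3 RPKM in Wt1-negative cells. The groups overlapped, but Id3 reached 10 RPKM in 39 of 44 Wt1-positive cells (88.6%, 75.4% to 96.2%) and in 6 of 18 Wt1-negative cells (33.3%, 13.3% to 59.01%). At 1 RPKM the shares were 93.2% of Wt1-positive cells (81.3% to 98.6%) and 61.1% of Wt1-negative cells (35.7% to 82.7%), and these intervals overlap. The level set for detection was 1 RPKM, and among the genes compared, shares at 10 RPKM are given for Id3 and Id2 alone. Mean log2(RPKM + 1) was 5.62 ± 2.09 in Wt1-positive cells and 2.83 ± 2.99 in Wt1-negative cells (SD over 44 and 18 cells), a difference of 2.79, or 2.66 after adjustment for genes per cell. It was 3.65 in cells 1 to 48 and 1.91 in cells 49 to 96, and 3.18 with plate row as a term. The difference was above 0 in cells of both depths but unequal, at 4.39 in cells with reads above the median and 1.40 in the others.

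Id2 (chr12:25778664-25780957, mm9) had 0, 216.2 and 915.0 RPKM in Wt1-positive cells, against 0, 82.8 and 1174 RPKM in Wt1-negative cells. Both groups held cells with low Id2, a larger part of them in the Wt1-negative group. Id2 reached 10 RPKM in 38 of 44 Wt1-positive cells (86.4%, 72.6% to 94.8%) and 11 of 18 Wt1-negative cells (61.1%, 35.7% to 82.7%), and these intervals overlap. The difference was 2.07, or 1.503 adjusted for genes per cell. Id1 had 0, 21.8 and 545.3 RPKM in Wt1-positive cells and 0, 1.16 and 120.2 RPKM in Wt1-negative cells. Its difference of 1.38 (1.05 adjusted) was unequal over the cell numbers, with 2.45 in cells 1 to 48 and 0.33 in cells 49 to 96. Id4, the least common member, reached 1 RPKM in 7 of 44 Wt1-positive cells and 1 of 18 Wt1-negative cells, with a difference of 0.48.

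**Figure D3:**
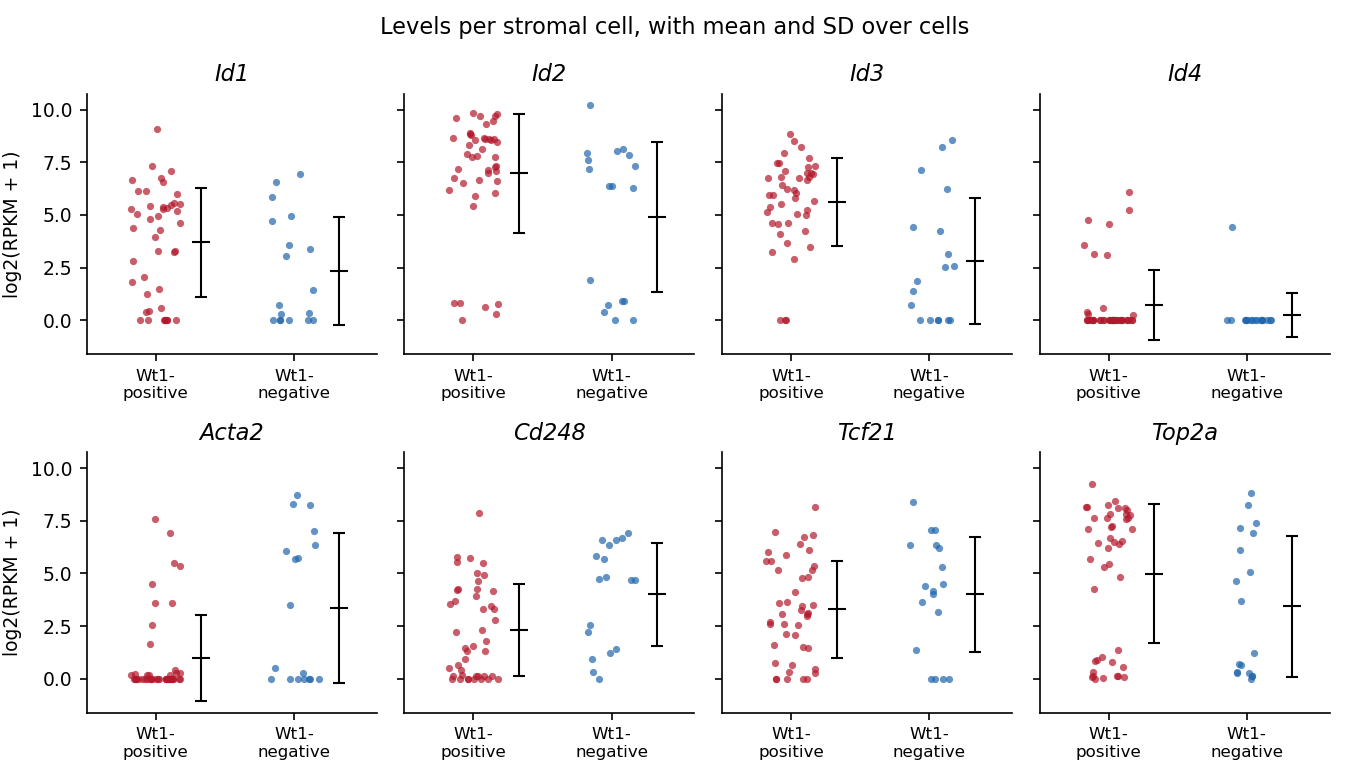
Each point is 1 stromal cell (44 Wt1-positive in red, 18 Wt1-negative in blue) on the log2(RPKM + 1) scale, with the mean and SD over cells in black. Most Wt1-positive cells hold Id3 and Id2 at high levels, Acta2 is below 1 RPKM in 35 of 44 Wt1-positive cells and 9 of 18 Wt1-negative cells, and every gene has low and high cells in both groups.

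The promoters of Id3 and Id2, which were both higher, and of Acta2, the gene of largest difference on the lower side, are shown from RefSeq on GRCm38.p6, from 250 bases before to 50 after the gene start and read in the direction of the gene. In Id3 (chr4:136143572-136143871, plus strand) and Id2 (chr12:25096043-25096342, minus strand) the search was for GGCGCC, a GC-rich SMAD site known from Id gene promoters, on both strands. In Acta2 (chr19:34255324-34255623, minus strand) it was for the CArG box bound by serum response factor, CC and GG around 6 bases of A or T, on both strands. The strict box gave no match there, and a form allowing 1 inner C or G was added after that was seen. Capitals mark the matches.
Id3: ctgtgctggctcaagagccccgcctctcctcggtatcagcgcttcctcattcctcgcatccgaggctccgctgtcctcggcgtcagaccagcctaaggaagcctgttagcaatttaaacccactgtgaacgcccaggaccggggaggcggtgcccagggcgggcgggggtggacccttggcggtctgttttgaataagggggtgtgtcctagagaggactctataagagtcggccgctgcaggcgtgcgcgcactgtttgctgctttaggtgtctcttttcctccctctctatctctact
Id2: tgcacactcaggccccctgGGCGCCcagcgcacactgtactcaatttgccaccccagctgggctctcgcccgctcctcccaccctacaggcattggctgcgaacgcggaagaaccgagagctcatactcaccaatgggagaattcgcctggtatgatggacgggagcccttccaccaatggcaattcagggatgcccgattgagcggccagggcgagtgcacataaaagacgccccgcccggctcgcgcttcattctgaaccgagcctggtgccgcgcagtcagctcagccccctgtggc
Acta2: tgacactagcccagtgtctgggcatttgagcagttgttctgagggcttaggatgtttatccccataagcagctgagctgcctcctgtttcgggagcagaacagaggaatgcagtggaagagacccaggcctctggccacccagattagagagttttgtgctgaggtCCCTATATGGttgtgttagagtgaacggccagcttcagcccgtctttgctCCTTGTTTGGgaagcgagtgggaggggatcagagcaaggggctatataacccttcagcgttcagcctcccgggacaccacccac
The Id3 window held no GGCGCC and the Id2 window held 1, which begins 231 bases before the start. GGCGCC occurs in 11.9% of the 32851 RefSeq promoter windows of this length. The Acta2 window held 2 relaxed CArG boxes, at 84 and 34 bases before the start, a form found in 9.98% of all windows (the strict box in 1.63%). A WT1-type site was also searched in the Id3, Id2 and Acta2 windows and gave 0 matches in each. That site occurs in 0.0548% of all windows, so its absence from a window is the usual case. The Acta2 window held 0 GGCGCC, and the Id3 and Id2 windows each held 0 CArG boxes, strict or relaxed. These counts describe the letters of these windows only. Wt1 itself has no entry in the promoter table.

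Other parts of the BMP and TGF-beta pathway differed less than Id3 and Id2. Of 19 measured genes of the list, 5 were higher by at least 1 and none lower (6.3% and 1.83% of all genes), with a median of 0.48, or 0.31 adjusted for genes per cell. Besides the 3 Id genes these were receptors: Acvr2a, a type II receptor for activins and BMPs, with a difference of 1.32 (26 of 44 against 4 of 18 cells at 1 RPKM), and Tgfbr2, the type II TGF-beta receptor, with 1.07 (11 of 44 against 1 of 18 cells). Tgfbr2 thus entered the comparison mainly through Wt1-positive cells. Acvr2a overlaps Orc4 on the opposite strand in the table, and strand-aware counting is not stated, so their reads cannot be told apart. The type I BMP receptor Bmpr1a had a difference of -0.51, the type II receptor Bmpr2 0.48, the signal transducer Smad1 -0.44 and the ligand Bmp7 -0.00. These 4 differences are smaller than the SDs over cells of the same genes. Of the 19 measured genes of the list, only Id3 differed by more than 1 SD pooled over cells.

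Acta2, which encodes smooth muscle alpha-actin, had the largest difference on the lower side. It had 0, 0 and 189.7 RPKM in Wt1-positive cells, against 0, 5.33 and 416.5 RPKM in Wt1-negative cells. It reached 1 RPKM in 9 of 44 Wt1-positive cells (20.5%, 9.80% to 35.3%) and in 9 of 18 Wt1-negative cells (50%, 26.02% to 73.98%), and these intervals overlap. The difference was -2.37 (0.98 ± 2.03 in Wt1-positive cells and 3.35 ± 3.55 in Wt1-negative cells, SD) and -2.39 after adjustment for genes per cell. It was -2.46 in cells 1 to 48, -2.23 in cells 49 to 96, -3.71 in cells with reads above the median and -1.07 in the others. The rest of the smooth muscle list differed by less. Of 13 measured genes, none was higher and 1, Acta2, lower by at least 1 (6.3% and 1.83% of all genes), with a median of -0.22. Cald1, the actin-binding caldesmon gene, had a difference of -0.83 and the intermediate filament gene Des -0.49, while Tagln had -0.28, Myl9 0.11 and the tropomyosin gene Tpm2 0.64.

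Of the perivascular genes named here, Cd248 alone differed by at least 1. It is not on the pericyte and PDGF list and was named as 1 of the 15 genes of largest difference on the lower side. Cd248, which encodes endosialin, a surface protein of pericytes and fibroblasts, had 0, 2.22 and 233.6 RPKM in Wt1-positive cells and 0, 25.5 and 120.9 RPKM in Wt1-negative cells. Its difference was -1.72, or -2.05 adjusted for genes per cell and -1.33 with plate row as a term. The pericyte gene Rgs5 was at 1 RPKM in 41 of 44 Wt1-positive and 15 of 18 Wt1-negative cells, with a difference of 0.29. The PDGF receptor gene Pdgfrb, with 43 of 44 and 18 of 18 cells, had a difference of 0.46. Of the 11 measured genes of the pericyte and PDGF list, none was higher or lower by at least 1 (6.3% and 1.83% of all genes). The median was 0.24, or 0.03 adjusted.

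Transcription factors of visceral mesenchyme had a median difference near 0. Of 20 measured genes, 1 (Meis1, 1.01) was higher and none lower by at least 1 (6.3% and 1.83% of all genes), with a median of -0.00. Tcf21, a regulator of visceral mesenchyme that is often found beside Wt1 in coelomic lineages, reached 1 RPKM in 34 of 44 Wt1-positive and 14 of 18 Wt1-negative cells. Its median was 7.68 RPKM in Wt1-positive cells and 18.7 RPKM in Wt1-negative cells, with a difference of -0.71. Isl1 had a difference of 0.68, Gata6 -0.50, Nkx2-3 -0.03, Barx1 0.37 and Osr1 0.17, each below the SDs over cells. Gata4 reached 1 RPKM in 0 of 62 stromal cells, which allows a share of up to 4.84%. Nr2f1, with -0.74, overlaps A830082K12Rik on the opposite strand, and 13.2% of the 50-base windows of Meis1 occur in transcripts of other genes. None of the 8 measured Hox genes reached 1, and their median was 0.26.

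A part of the cell cycle genes was higher in Wt1-positive cells before the adjustment for genes per cell. Of 25 measured G2/M genes, 6 were higher and none lower by at least 1 (6.3% and 1.83% of all genes), with a median of 0.75. They included Birc5 (1.94), which encodes survivin, Top2a (1.56), the DNA topoisomerase of dividing cells, and Mki67 (1.51), which encodes the Ki-67 antigen. Birc5 had a median of 47.9 RPKM in Wt1-positive cells and 0.656 RPKM in Wt1-negative cells, with ranges of 0 to 578.7 RPKM and 0 to 185.0 RPKM. Cells with at least 5 of the 25 genes at 10 RPKM were 29 of 44 Wt1-positive cells (65.9%, 50.1% to 79.5%) and 7 of 18 Wt1-negative cells (38.9%, 17.3% to 64.3%). With genes per cell in the fit, the median over the G2/M list was -0.09, with 1 gene higher and 2 lower (4.3% and 4.31% of all genes in that fit), and in cells with reads above the median it was 0.01. Of 23 G1/S genes, 6 were higher and none lower, with a median of 0.53, or 0.24 adjusted. The replication factor gene Gins2 (1.62) kept its difference in that fit, at 1.87, and overlaps Gse1 on the opposite strand. Top2a had a difference of -0.17 in cells 1 to 48 and 3.34 in cells 49 to 96. Both the share of cycling cells and the genes per cell were higher in the Wt1-positive group, and what belongs to each cannot be told apart here.

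**Figure D4:**
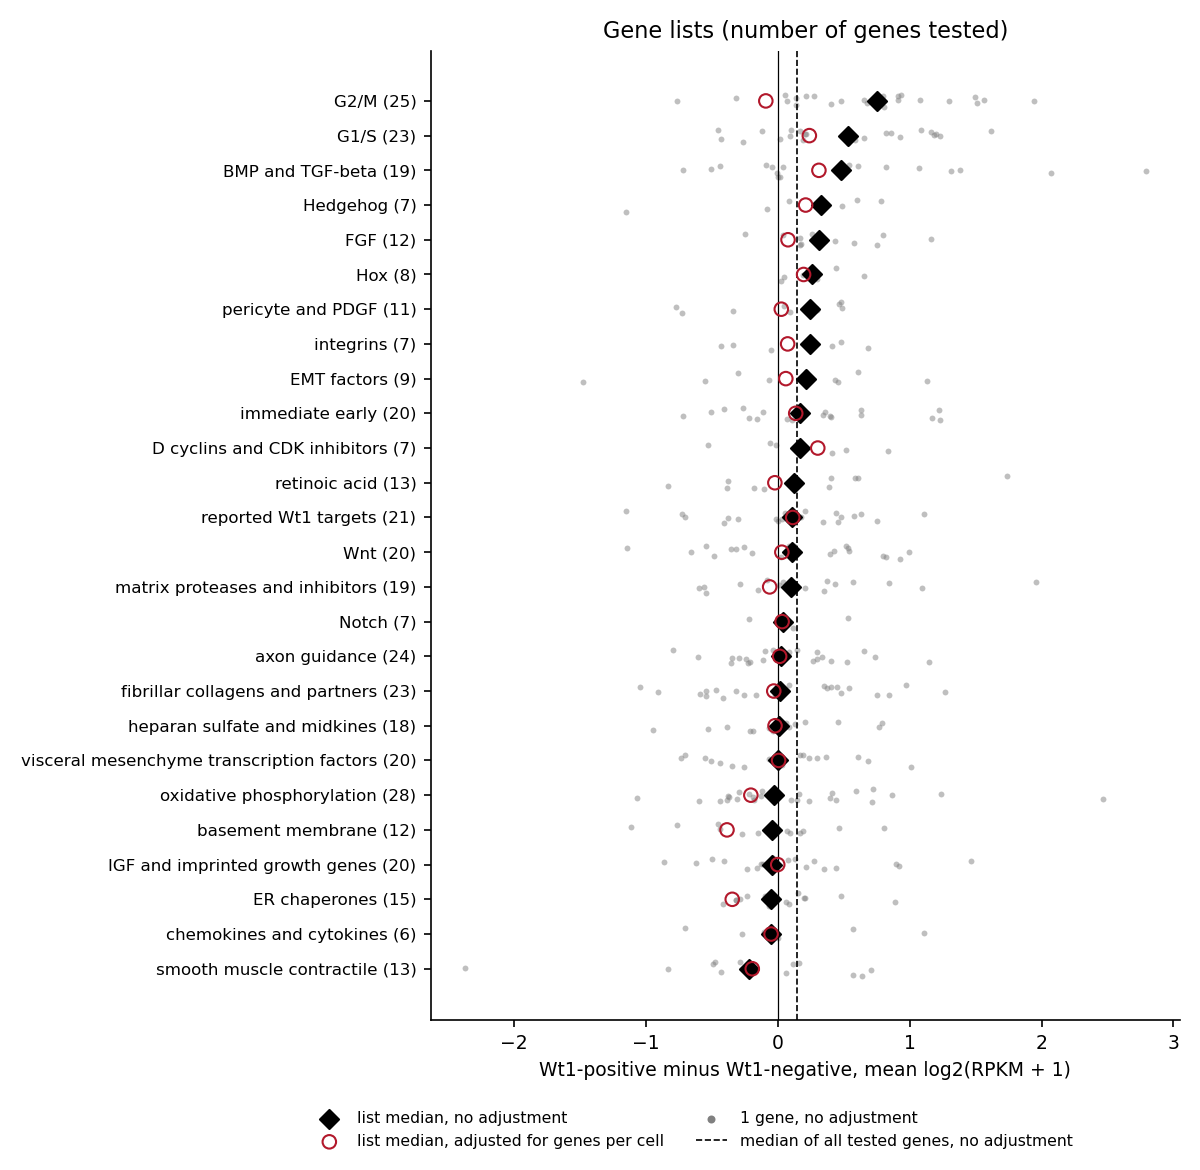
Differences between Wt1-positive and Wt1-negative cells for 26 lists with at least 5 measured genes; each grey point is 1 gene, diamonds are list medians, open circles are list medians adjusted for genes per cell, and the dashed line is the median of all genes (0.14). The G2/M list has the highest median of these lists, 0.75, and one of -0.09 with the adjustment; the BMP and TGF-beta list has 0.48 and 0.31.

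A few matrix genes were past 1 unit, in both directions. Of 23 measured fibrillar collagen and partner genes, 1 was higher and 1 lower by at least 1, with a median of 0.02. These counts are near the shares over all genes, 6.3% higher and 1.83% lower. Fn1, which encodes fibronectin, reached 1 RPKM in 18 of 44 Wt1-positive cells (40.9%, 26.3% to 56.8%) and 1 of 18 Wt1-negative cells (5.56%, 0.141% to 27.3%), with a difference of 1.27. Bgn, which encodes the small proteoglycan biglycan, had a difference of -1.05, or -1.49 adjusted for genes per cell. Timp1, which encodes an inhibitor of matrix metalloproteinases, was the gene of largest difference among 19 proteases and inhibitors. It reached 1 RPKM in 17 of 44 Wt1-positive cells (38.6%, 24.4% to 54.5%) and 1 of 18 Wt1-negative cells, with highest values of 471 and 4.66 RPKM and a difference of 1.96. Fn1 and Timp1 thus entered the comparison mainly through Wt1-positive cells. Timp1 overlaps Syn1 on the opposite strand. Serpine2 (1.10), an inhibitor of serine proteases, was the other member past 1 (6.3% of all genes were higher by as much). Its difference was -0.49 in cells with reads above the median. Of 12 basement membrane genes, only Nid2 (-1.11), which encodes nidogen-2, was past 1 (1.83% of all genes were lower by as much). Nid2 overlaps 2700060E02Rik on the opposite strand. Col1a1 and Col1a2, the chains of type I collagen, had 0.08 and 0.38.

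In each of the retinoic acid, FGF, Wnt, Hedgehog and Notch lists, at most 1 gene was past 1 in each direction (6.3% and 1.83% of all genes). Dhrs3, which encodes a retinal reductase that lowers retinoic acid synthesis, reached 1 RPKM in 11 of 44 Wt1-positive cells and 0 of 18 Wt1-negative cells (a share of up to 16.7%). It thus met the gene filter through Wt1-positive cells alone. Its highest values were 736.6 and 0.644 RPKM, with a difference of 1.74. The rest of the 13 measured retinoic acid genes stayed within 1. Fgfr1, an FGF receptor gene, had a median of 27.4 RPKM in Wt1-positive cells and 11.7 RPKM in Wt1-negative cells, with a difference of 1.16. Gas1, which encodes a membrane co-receptor for Hedgehog ligands and is on the list of reported WT1 targets, had 0.109, 31.8 and 122.5 RPKM in Wt1-positive cells and 10.4, 69.02 and 245.5 RPKM in Wt1-negative cells. Its difference of -1.15 was -1.15 in cells 1 to 48 and -1.16 in cells 49 to 96, but -0.22 in cells with reads above the median and -1.97 in the others. Of the 21 measured reported WT1 targets, 1 (Csf1, 1.11) was higher and 1 (Gas1) lower by at least 1. Over all genes, 6.3% were higher and 1.83% lower by as much. The median of these targets was 0.11, beside 0.14 over all genes. Tcf7l2, an effector of Wnt signalling, had a difference of -1.14, and Zeb1, a repressor active in epithelial-mesenchymal transition, -1.48. Zeb1 overlaps Gm10125 on the opposite strand.

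Of the immediate early genes, which respond within minutes to stimuli such as dissociation, 3 of 20 were higher by at least 1 (Dusp1 1.23, Klf4 1.22 and Egr2 1.17) and none lower (6.3% and 1.83% of all genes), with a median of 0.17 beside 0.14 over all genes. Fos and Jun had 0.16 and -0.41. Of 28 nuclear genes of oxidative phosphorylation, 2 were higher and 1 lower, with a median of -0.03. Sdha, which encodes the flavoprotein subunit of succinate dehydrogenase, had 0, 25.6 and 257.2 RPKM in Wt1-positive cells and 0, 0.267 and 67.1 RPKM in Wt1-negative cells. Its difference was 2.46, and that of Sdhd, another subunit of the same enzyme, -1.07.

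The remaining genes of largest difference belong to no one list. Golga7, which encodes a Golgi protein that partners palmitoyltransferases, had 0.129, 137.0 and 577.1 RPKM in Wt1-positive cells and 0, 3.71 and 206.9 RPKM in Wt1-negative cells. Its difference was 2.80 (2.19 adjusted for genes per cell), with 3.97 in cells at or below the median of reads and 0.83 in the others. It was followed by Rpp21 (2.497), a subunit of ribonuclease P, Xpo6 (2.33), the nuclear exporter of actin, Isca2 (2.33), an iron-sulfur cluster assembly factor, Cep57 (2.29), a centrosome protein, and Fkbp7 (2.26), a prolyl isomerase of the endoplasmic reticulum. In cells with reads above the median and in the others, Rpp21 had 0.72 and 3.89, Xpo6 0.87 and 3.38 and Isca2 1.44 and 2.83. Cep57 had 3.21 and 1.18 and Fkbp7 2.26 and 1.97. Gtf3c2 (2.06) is uncertain, since 52.6% of its 50-base windows occur in other genes. On the lower side, Ctsl (-1.69) encodes the lysosomal protease cathepsin L and Cstb (-1.70) an inhibitor of cathepsins. Cstb had a median of 18.5 RPKM in Wt1-positive cells and 127.4 RPKM in Wt1-negative cells. Nav1 (-1.69), a microtubule-associated gene, had 3.42 and 16.5 RPKM, and Cd276 (-1.54), an immune checkpoint gene of the B7 family, 0.148 and 10.1 RPKM.

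Among the cells that had Wt1, the level of Id3 had little relation to that of Wt1. In 4 classes of rising Wt1 (listed at 0, above 0 and below 1 RPKM, from 1 RPKM to the median of Wt1-positive cells, and above that median; 10, 8, 22 and 22 cells), the median of Id3 was 1.11, 6.39, 46.6 and 103.7 RPKM. Its mean log2(RPKM + 1) was nearly level across the upper classes, at 5.56 and 5.68, and the Spearman correlation with Wt1 over the 44 Wt1-positive cells was 0.06. Fn1 reached 1 RPKM in 0, 1, 9 and 9 cells and Timp1 in 0, 1, 8 and 9 cells of these classes. Acta2 did so in 5, 4, 3 and 6 cells. Tcf21 had its highest median, 50.5 RPKM, in the 8 cells with Wt1 above 0 and below 1 RPKM, all of which had it at 1 RPKM. The cells with 1 to 3 Wt1 reads thus did not sit between the classes for every gene.

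**Figure D5:**
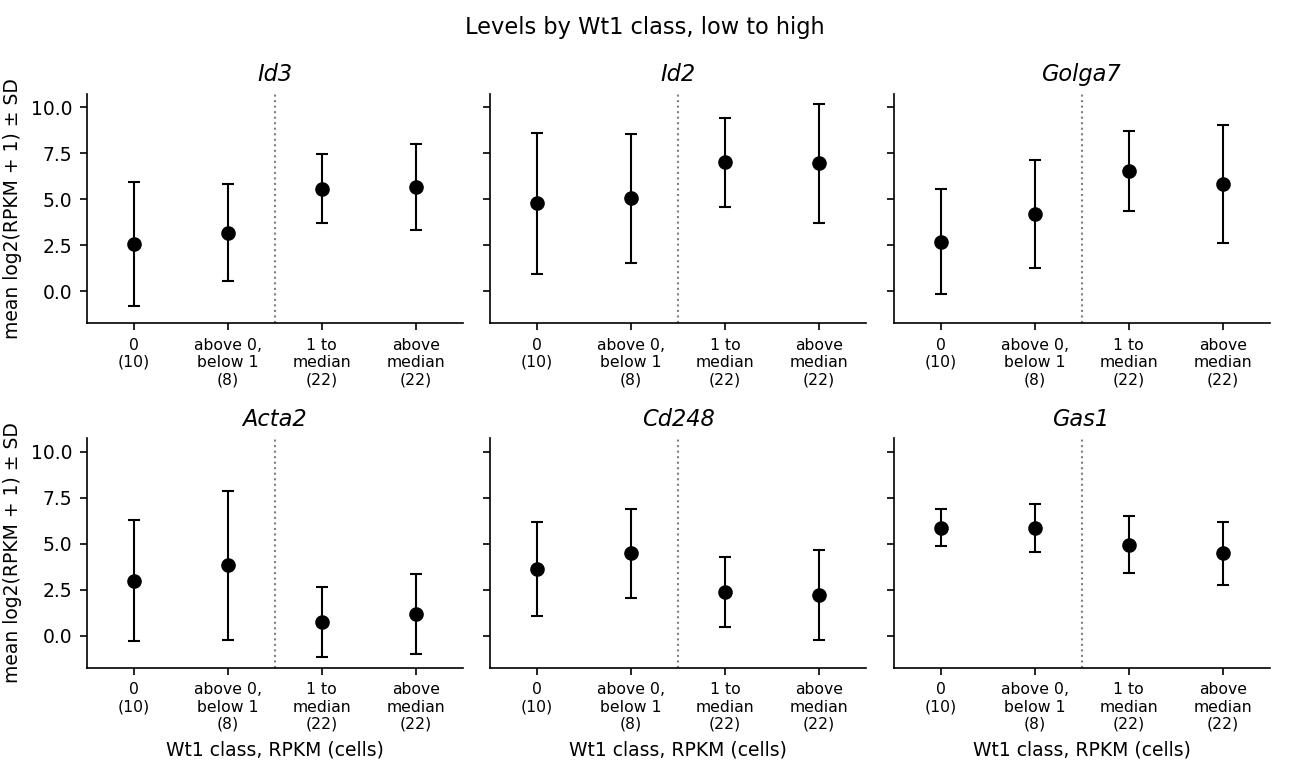
Mean log2(RPKM + 1) with SD over cells in 4 classes of Wt1, from cells listed at 0 (10 cells) to those above the median of Wt1-positive cells (22 cells); the dotted line marks the threshold of 1 RPKM. Id3, Id2 and Golga7 are higher and Acta2, Cd248 and Gas1 lower in both classes to the right of the line, and SDs overlap throughout.

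Genes whose levels ranked most like Wt1 were chosen by Spearman correlation over the 62 stromal cells, among genes at 1 RPKM in at least 50% of them. Highest were Xpo6 (0.50), Gins2 (0.42), Cnpy4 (0.41), Ankhd1 (0.41), Rnf214 (0.40), Grcc10 (0.40), Cnn3 (0.39) and Pycrl (0.39). Lowest were Rrbp1 (-0.43), Srsf11 (-0.38), Gas1 (-0.36), Cd248 (-0.33), Srsf7 (-0.32), Tfdp1 (-0.32), Psmd12 (-0.32) and Eif1b (-0.31). These are the ends of a ranking of many genes over cells of 1 preparation that differ in genes per cell, which itself had a correlation of 0.20 with Wt1. Within the 44 Wt1-positive cells Xpo6 stood at 0.40, Cnn3, a calponin gene, at 0.49 and Rrbp1, which encodes a ribosome-binding protein of the endoplasmic reticulum, at -0.42. Between 14.8% and 24.2% of the 50-base windows of Ankhd1, Grcc10, Cnn3 and Tfdp1 occur in other genes, and Rnf214 overlaps Pcsk7 on the opposite strand.

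Other divisions of the stroma were found on both sides of the Wt1 split. Sox9, a transcription factor gene, reached 1 RPKM in 14 of 44 Wt1-positive cells (31.8%, 18.6% to 47.6%) and 8 of 18 Wt1-negative cells (44.4%, 21.5% to 69.2%), shares whose intervals overlap. The same held for Rgs5 (93.2%, 81.3% to 98.6%, against 83.3%, 58.6% to 96.4%) and Tcf21 (77.3% and 77.8%). Acta2 shares lay further apart, at 20.5% (9.80% to 35.3%) and 50% (26.02% to 73.98%), and these intervals also overlap.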

How the data were processed

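The deposited table holds 1 RPKM value per transcript and cell, made by the authors, for 29510 transcript rows of 22869 gene symbols in 81 cells. The table names no unit. RPKM was inferred, since a value times its transcript length falls on steps of 1 read (within 0.15 of a whole read for a median of 78.2% of low values per cell). CASAVA 1.8.2 and mm9 are named in the submitters' processing notes. Aligner, counter and annotation: not given in the sources used here. Each library was read in 2 lanes, per the labels.

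From these steps and lengths in GENCODE vM21 (found for 96.9% of rows), reads per cell were estimated. Each gene stands for 1 transcript row, that of highest mean over cells. The difference is mean log2(RPKM + 1), Wt1-positive minus Wt1-negative; this pseudocount understates the change of low genes. Genes at 1 RPKM in at least 10% of stromal cells were compared, the genes that define the groups left out. With 44 Wt1-positive and 18 Wt1-negative cells, a gene limited to the larger group met this filter more easily. Adjusted differences come from a linear fit over cells with genes per cell, log2 reads or plate row as a term. Shares have exact Clopper-Pearson 95% intervals and a share of 0 the limit of 3 counts. These describe counting error over cells alone, since all cells are 1 sample. Reads carry no molecular identifiers. With 1 sample there is no test between cells. Doublets were not called, given only 81 cells. Calculations used Python 3.11.15 with numpy 2.4.6, pandas 2.3.3, scipy 1.17.1 and matplotlib 3.10.9, and were checked on simulated data.

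Genes named are the 15 of largest difference in each direction that reach 1 RPKM in no less than 50% of cells in whichever group is higher (a part of them is printed); up to 4 genes of each list; the 8 with the highest and the 8 with the lowest correlation with Wt1; and fixed genes of mesothelium and mesenchyme. Other list members are given with their lists. The groups, lists and comparisons were chosen with earlier results of these data known. Muc16, Raldh2 and Zac1 were not matched to a row of the table. Alternatives varied the Wt1 threshold, the gate, the pseudocount, the gene filter, the scaling, the transcript rows, the depth and the cells used.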

Additional observations from a re-analysis of the deposited data

How the results depend on the processing

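The 568 higher and 165 lower genes are counts by size, and they moved with the choices that change the spread of the differences. With Wt1 above 0 as the threshold (52 positive cells) they were 1015 and 331, with a pseudocount of 0.1 RPKM 1742 and 583, and with one of 10 RPKM 33 and 9. Limited to genes at 1 RPKM in 50% of cells they were 305 and 69. Cells with reads above the median gave 950 and 900, those at or below it 1198 and 474, cells 1 to 48 gave 1081 and 659, and cells 49 to 96 gave 1232 and 520. Lower genes numbered 389 with adjustment for genes per cell. Among settings chosen after seeing the data, Wt1 at 10 RPKM against Wt1 at 0 gave 1119 and 358, lower genes numbered 401 with adjustment for reads and genes together and 274 with plate row as a term, and leaving out C20 and C77, which an earlier look had found to carry transcripts of other cell types, gave 687 and 167. Fewer cells or fewer genes enter several of these; otherwise the cause was not tested. Upper quartile scaling gave 571 and 170. The difference in reads moved by less than 1 SD over cells in each of the 12 settings that change the cells.

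Id3 stayed between 1.40 and 4.39, Id2 between 1.09 and 3.07, Sdha between 1.30 and 3.39, Timp1 between 1.03 and 2.96 and Acta2 between -3.71 and -1.07 over all 22 alternatives. Among named genes that differed by at least 1, 9 changed sign in 1 alternative each: Cd276 (0.027) with Wt1 above 0, Psmd12 (0.83), Meis1 (-0.57), Serpine2 (-0.49) and Mcm3 (-0.51) with reads above the median, Rrm1 (-0.074) and Cyc1 (-0.29) with reads at or below it, Top2a (-0.17) in cells 1 to 48 and Dusp1 (-0.42) in cells 49 to 96. Some named genes of smaller difference also crossed 0, among them Tcf21 (-1.55 to 0.73), Rgs5 (-0.66 to 1.33) and Isl1 (-0.32 to 1.68). No paired analysis was possible because all cells are 1 group, and no replicate could be left out because the labels name no animals or pools, so the cells are 1 sample. Most differences are smaller than the SD over cells, and 18 Wt1-negative cells limit the precision.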
